A study of Mus with 2 samples.

Results

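The neuregulin and EGF ligands *Nrg1*, *Nrg4*, *Hbegf* and *Areg* and the 4 ErbB receptors *Egfr*, *Erbb2*, *Erbb3* and *Erbb4* were followed in nuclei of mouse interscapular brown adipose tissue (iBAT). These 8 genes were chosen by name, out of 32285 genes in the files. Both single-nucleus RNA sequencing (snRNA-seq) libraries were read as raw UMIs (unique molecular identifiers, 1 for each captured RNA molecule). The UMIs were summed by class of nuclei, and the classes were set by marker genes that do not include the 8 genes. The *Wtap* flox/flox library came from C57BL/6 mice that carry *Wtap*, a subunit of the m6A RNA methyltransferase complex, with exon 4 flanked by loxP sites. The other library, labelled *Wtap*-BKO, came from *Wtap* flox/flox mice that also carry *Ucp1*-iCre, a Cre recombinase expressed from the *Ucp1* gene of brown adipocytes. All mice were 8 weeks old, ate normal chow, and were pooled, 4 to a library. There was 1 library for each genotype, so no test between genotypes was possible and no p-value is given.

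ErbB receptors are receptor tyrosine kinases that signal as pairs once a ligand of the EGF or neuregulin family is bound. EGFR binds HB-EGF, amphiregulin and other EGF-like ligands, ErbB4 and ErbB3 bind neuregulins, ErbB2 has no known ligand of its own and acts as a partner, and ErbB3 has little kinase activity and depends on a partner. NRG4 is known as a factor that brown adipocytes release and that signals through ErbB4, and the ligands are made as membrane-bound precursors that proteases such as ADAM17 cut free.

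On the mm10 build (GRCm38, RefSeq annotation), *Nrg1* (ENSMUSG00000062991) lies at chr8:31807452-32891609 and *Nrg4* (ENSMUSG00000032311) at chr9:55220222-55283654. *Areg* (ENSMUSG00000029378) lies at chr5:91139599-91148432, and *Hbegf* is ENSMUSG00000024486 in the files. The receptors lie at chr11:16752203-16913907 for *Egfr* (ENSMUSG00000020122), at chr11:98412484-98437716 for *Erbb2* (ENSMUSG00000062312), at chr10:128567523-128589635 for *Erbb3* (ENSMUSG00000018166) and at chr1:68031884-69108576 for *Erbb4* (ENSMUSG00000062209). All 8 are protein-coding genes. The *Nrg4* interval overlaps *Fbxo22*, which had 765 UMIs, and that of *Erbb2* overlaps *Mien1*, which had 310 UMIs. Whether the counting used strand was not stated, so reads from such overlaps cannot be told apart.

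The *Wtap* flox/flox library held 9494 nuclei with 10770604 UMIs, and the library labelled *Wtap*-BKO held 8772 nuclei with 13945673 UMIs. The median depth was 954 and 1306 UMIs per nucleus, respectively, and mitochondrially encoded genes took 7.60% and 11.7% of the UMIs. Only 20 barcodes occurred in both libraries. Adipocyte-like nuclei made up 70.6% of the nuclei in flox/flox and 54.3% in the library labelled *Wtap*-BKO, fibroblast-like nuclei 2.83% and 5.47%, and macrophage-like nuclei 3.05% and 12.6%. The brown adipocyte markers, 10 genes with *Ucp1* among them, summed to 10916 and 7895 CPM (counts in every 1000000 UMIs) in adipocyte-like nuclei. *Wtap* itself had 378 and 391 UMIs there, and its level did not differ between the libraries beyond counting error (log2 ratio -0.08, 95% interval -0.28 to 0.13). A 3′ tag count does not check the loss of an internal exon. All log2 ratios between libraries are of *Wtap*-BKO over flox/flox. Their 95% intervals, and those of CPM and shares, cover counting error only, and not the spread between mice.

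*Nrg4*, the ligand of ErbB4, was by far the most counted of the ligands, with 11239 UMIs in flox/flox and 11750 in the library labelled *Wtap*-BKO. Adipocyte-like nuclei held 88.6% and 85.6% of these UMIs. There, *Nrg4* stood at 1317 CPM (1291 to 1343) in flox/flox and at 1221 CPM (1197 to 1245) in the library labelled *Wtap*-BKO. Of the adipocyte-like nuclei with at least 1000 UMIs, thinned to 1000, 71.4% of 3281 and 62.7% of 3824 had a *Nrg4* UMI. Left out as too shallow were 3418 nuclei in flox/flox and 940 in *Wtap*-BKO, so the nuclei behind the shares were selected unequally. Without thinning, at median depths of 991 and 1509 UMIs, the shares were 66.7% and 72.1%.

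Outside adipocyte-like nuclei, *Nrg4* was read as background. In endothelial-like nuclei it stood at 410 and 367 CPM, in pericyte-like at 319 and 315 CPM, in fibroblast-like at 374 and 238 CPM, in macrophage-like at 536 and 282 CPM, and in T cell-like nuclei at 848 and 359 CPM. These levels amounted to between 19.5% and 64.4% of the adipocyte-like level of the same library. The 12 adipocyte markers, such as *Adipoq* and *Plin1*, were found in the same nuclei at a comparable part of their adipocyte-like level. Their median was 66.0% in flox/flox T cell-like nuclei, for example, where *Nrg4* was at 64.4%. *Nrg4* was below the median of the adipocyte markers in 10 of 10 pairs of a class and a library. In macrophage-like nuclei, 34.4% and 17.6% had a *Nrg4* UMI after thinning, at median depths of 890 and 1311 UMIs. In T cell-like nuclei, at median depths of 1043 and 983.5 UMIs, the shares were 55.6% (35 of 63, 42.5% to 68.1%) and 24.9% (90 of 362), so that in flox/flox the background share came close to the 71.4% of adipocyte-like nuclei. The same reading held for *Erbb4*, which was below the marker median in 8 of the 10 pairs and within the markers' range in flox/flox fibroblast-like nuclei (40.0% of the adipocyte-like level, markers 27.7% to 57.6%) and flox/flox T cell-like nuclei (83.2%, markers 55.9% to 86.9%).

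**Figure D1:**
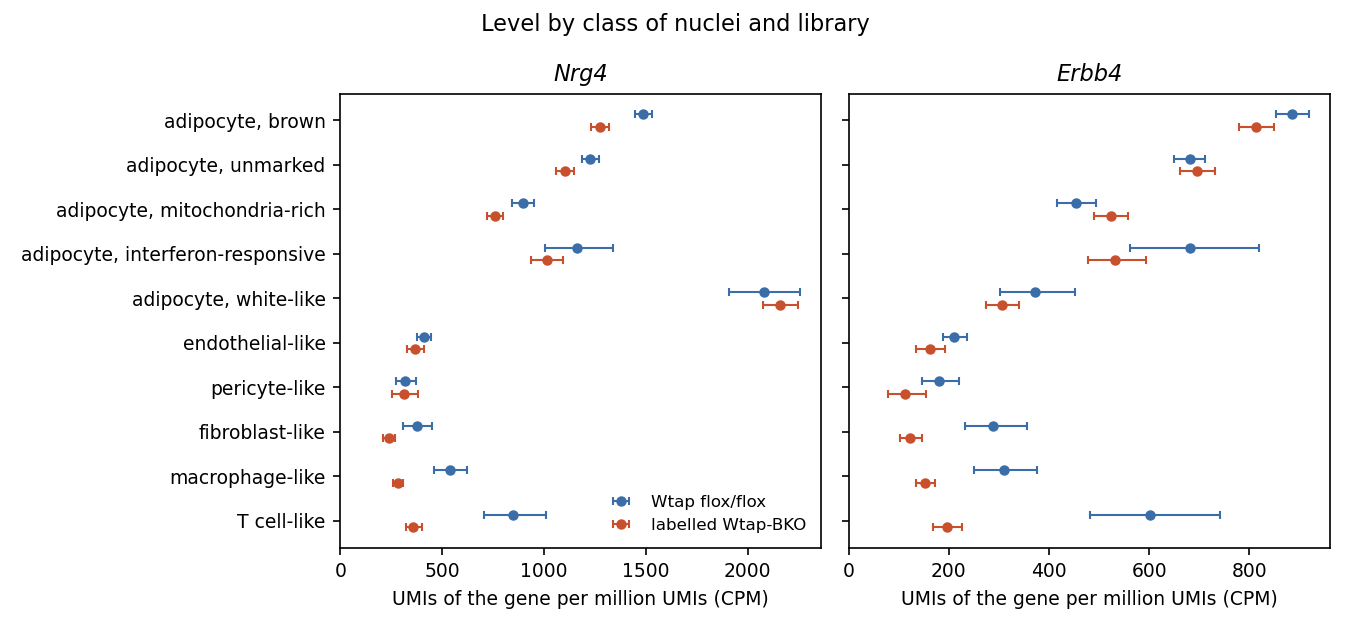
Levels of *Nrg4* and *Erbb4* in CPM for each class of nuclei and each adipocyte-like cluster, 1 point for each library with its 95% Poisson interval. *Nrg4* is highest in the white-like cluster, at 2079 and 2159 CPM, and *Erbb4* in the brown cluster, at 886 and 814 CPM, and the highest points outside adipocyte-like nuclei are those of flox/flox T cell-like nuclei, at 848 and 602 CPM.

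Within the adipocyte-like nuclei, 5 clusters were separated. They were a brown cluster led by genes such as *Lncbate10*, *Gmpr* and *Ppargc1a*, a white-like cluster led by *Slc7a10*, *Chst1*, *Cyp2e1* and *Trhde*, an interferon-responsive cluster, a cluster rich in mitochondrial RNA, and a cluster with none of these marks, called unmarked. *Nrg4* had its highest level in the white-like cluster of 198 nuclei in flox/flox (2079 CPM, 1910 to 2258) and 513 nuclei in the library labelled *Wtap*-BKO (2159 CPM, 2075 to 2246). It stood at 1488 and 1274 CPM in the brown cluster, 1227 and 1105 CPM in the unmarked cluster, 1164 and 1014 CPM in the interferon-responsive cluster, and 895 and 759 CPM in the mitochondria-rich cluster. The order of the 5 clusters was the same in both libraries. The unmarked and interferon-responsive neighbours were not separated by their counting intervals in either library, whereas the white-like and brown clusters were separated in both.

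The white-like cluster had much *Nrg4* and little *Erbb4* compared with the other adipocyte-like clusters. Against all other adipocyte-like nuclei, *Nrg4* was 1.61-fold higher in flox/flox (log2 0.69, 0.56 to 0.81) and 2.02-fold higher in the library labelled *Wtap*-BKO (log2 1.01, 0.95 to 1.08). Of all genes, 8.15% were at least 1.5-fold higher in this cluster in both libraries. *Erbb4*, the receptor, went the other way, with 371 against 736 CPM in flox/flox and 306 against 680 CPM in the library labelled *Wtap*-BKO. That is 1.98-fold lower (log2 -0.99, -1.29 to -0.70) and 2.22-fold lower (log2 -1.15, -1.31 to -0.99), and 6.46% of all genes were at least 1.5-fold lower in both libraries. The cluster had 17.9 and 14.2 *Erbb4* UMIs for every 100 *Nrg4* UMIs, while the other 4 adipocyte-like clusters had between 50.6 and 69.0. When the nuclei were clustered on 8 principal components, the flox/flox log2 ratios of the white-like cluster were 0.44 for *Nrg4* and -0.48 for *Erbb4*, both under 1.5-fold. In thinned nuclei of the white-like cluster, 80.5% and 77.8% had a *Nrg4* UMI and 25.0% and 23.6% an *Erbb4* UMI, against 74.4% and 67.6%, and 52.2% and 49.6%, in the brown cluster.

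Against the brown cluster alone, *Nrg4* was higher in the white-like cluster by 0.48 and 0.76 on the log2 scale, and *Erbb4* was lower, with log2 ratios of -1.25 and -1.41. For *Nrg4*, the flox/flox value was thus under 1.5-fold, and 6.82% of all genes were at least 1.5-fold higher and 7.85% lower than in the brown cluster in both libraries. Marker sums of other cell types also stood higher in the white-like cluster. Fibroblast markers summed to 215 and 259 CPM there against 95.2 and 167 CPM in the brown cluster, and macrophage markers to 208 and 205 CPM against 69.7 and 130 CPM. Their part in the result was not tested. The markers that name the cluster summed to 2357 and 3396 CPM in it and to 236 and 678 CPM in the brown cluster. The white-like cluster took 4.98% of all *Nrg4* UMIs in flox/flox and 20.9% in the library labelled *Wtap*-BKO, while it held 2.50% and 8.17% of the UMIs of all genes, a 3.27-fold difference in its own size.

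The adipocyte-like nuclei were also divided by their UMIs of 7 white-like markers, after thinning to 1000 UMIs, in place of the clusters. The nuclei with 3 or more such UMIs were mostly those of the white-like cluster. In flox/flox, *Nrg4* stood at 1362 CPM in 2595 nuclei with 0 marker UMIs and at 1985 CPM in 66 nuclei with 3 or more, and *Erbb4* at 771 and 470 CPM. In the library labelled *Wtap*-BKO, *Nrg4* stood at 1076 CPM in 2115 nuclei and at 1678 CPM in 394 nuclei, and *Erbb4* at 654 and 421 CPM. Once the nuclei of the white-like cluster were left out, the 148 remaining *Wtap*-BKO nuclei with 3 or more marker UMIs had 1142 CPM of *Nrg4* (976 to 1328) against 1055 CPM at 0, and 622 CPM of *Erbb4* (501 to 762) against 665 CPM. Both values at 0 lay within these intervals. In flox/flox, 18 such nuclei remained, at 1833 CPM of *Nrg4* (1262 to 2575) and 833 CPM of *Erbb4* (466 to 1374), against 1357 and 773 CPM at 0. The 483 remaining flox/flox nuclei with 1 marker UMI had 1565 CPM of *Nrg4* (1456 to 1681), apart from the interval at 0 (1313 to 1403). In *Wtap*-BKO, the 875 nuclei with 1 had 1072 CPM (1004 to 1143), which held the value at 0.

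**Figure D2:**
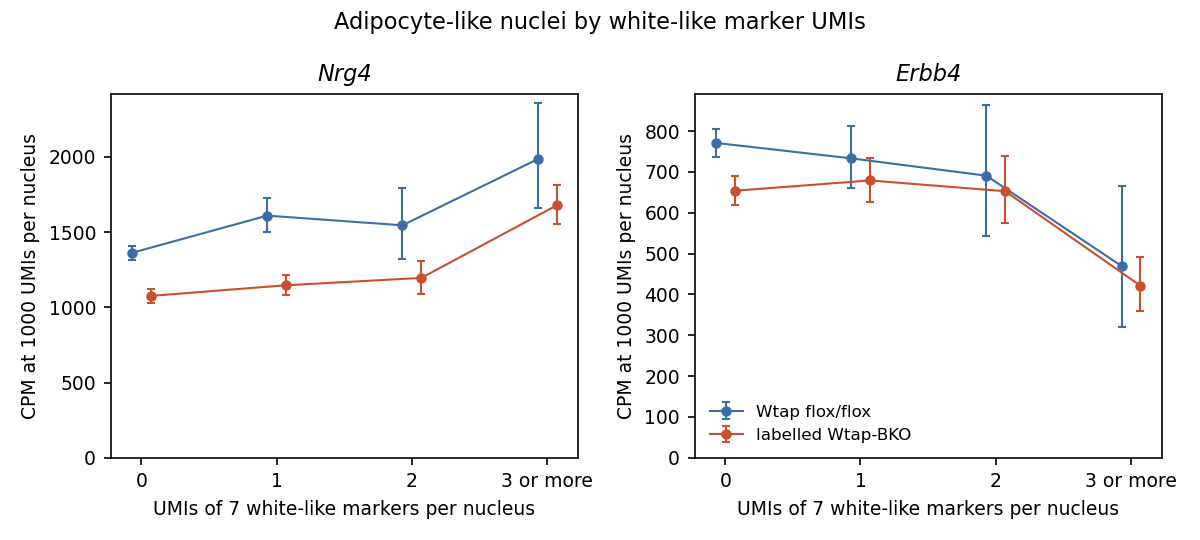
*Nrg4* and *Erbb4* in CPM of adipocyte-like nuclei thinned to 1000 UMIs, by the number of white-like marker UMIs in the nucleus (0, 1, 2, or 3 or more), with 95% Poisson intervals. In both libraries the bin with 3 or more marker UMIs has the highest *Nrg4* level and the lowest *Erbb4* level.

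Between the libraries, *Nrg4* in adipocyte-like nuclei differed by less than 1.5-fold, and its direction depended on which nuclei were kept. The log2 ratio was -0.11 (-0.15 to -0.07) on all UMIs and 0.00 (-0.04 to 0.04) on non-mitochondrial UMIs. It was 0.26 (0.20 to 0.32) once nuclei with over 5% mitochondrial UMIs were removed. Mitochondrial UMIs took 4.45% of the adipocyte-like total in flox/flox and 11.7% in the library labelled *Wtap*-BKO, and leaving them out raised every log2 ratio in this class by 0.11. In nuclei with under 5% mitochondrial UMIs, *Nrg4* stood at 1440 CPM of non-mitochondrial UMIs in 5181 flox/flox nuclei and at 1742 CPM in 1053 *Wtap*-BKO nuclei. Between 10% and 20%, it stood at 1092 CPM in 459 and at 1243 CPM in 1624 nuclei. *Nrg4* was higher in the library labelled *Wtap*-BKO in each of the 4 mitochondrial bins and was lower from each bin to the next in both libraries. The bin over 20% held 125 flox/flox and 666 *Wtap*-BKO nuclei, at 797 CPM (653 to 963) and 946 CPM (883 to 1013), with overlapping intervals.

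The adipocyte-like clusters showed differences of the same small size. The *Nrg4* log2 ratio was -0.22 (-0.29 to -0.16) in the brown, -0.15 (-0.23 to -0.08) in the unmarked, -0.24 (-0.36 to -0.12) in the mitochondria-rich, -0.20 (-0.43 to 0.04) in the interferon-responsive and 0.05 (-0.08 to 0.19) in the white-like cluster. Leaving out nuclei with over 5% mitochondrial UMIs turned the unmarked value to 0.05 and the interferon-responsive value to 0.01, and moved the brown value to -0.09 and the white-like value to 0.38. The log2 ratios of *Nrg4* in fibroblast-like (-0.65), macrophage-like (-0.93) and T cell-like nuclei (-1.24) concern levels read as background. The adipocyte markers also stood at a smaller part of their adipocyte-like level in the *Wtap*-BKO nuclei of these classes, for example a median of 47.7% in flox/flox and 28.5% in *Wtap*-BKO macrophage-like nuclei.

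*Nrg1*, a neuregulin that binds ErbB3 and ErbB4, was rare, with 57 UMIs in flox/flox and 91 in the library labelled *Wtap*-BKO. Adipocyte-like nuclei held 35 and 23 of them, at 4.63 and 2.79 CPM (log2 ratio -0.73, -1.56 to 0.07). Macrophage-like nuclei held 2 and 35 UMIs, at 6.31 and 19.3 CPM, which was 1.36-fold the adipocyte-like level in flox/flox (log2 0.45, -2.65 to 2.41) and 6.93-fold in the library labelled *Wtap*-BKO (log2 2.79, 1.99 to 3.62). Of all genes, 18.9% were at least 1.5-fold higher in macrophage-like nuclei in both libraries. With 2 UMIs in flox/flox, the log2 ratio of 1.62 between libraries ran from -0.34 to 4.72 and held both directions. Of the 35 UMIs in *Wtap*-BKO macrophage-like nuclei, 29 were in the 957 nuclei with a UMI of a dendritic cell marker (17.7 CPM) and 6 in the 150 nuclei without one (34.5 CPM), with overlapping intervals. A cluster left unnamed, led by *Cadm2*, *Slc35f1* and *Kcna1*, held 2 and 9 *Nrg1* UMIs (17.2 and 26.9 CPM).

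*Hbegf* and *Areg*, which encode the EGFR ligands HB-EGF and amphiregulin, were at the edge of detection. *Hbegf* had 13 UMIs in flox/flox and 30 in the library labelled *Wtap*-BKO, of which 12 and 23 were outside adipocyte-like nuclei (3.74 and 4.03 CPM). These were spread over endothelial-like (4 and 5 UMIs), pericyte-like (3 and 3) and macrophage-like nuclei (3 and 5), among others. *Areg* had 0 UMIs in flox/flox, which allows up to 0.279 CPM, and 1 UMI in the library labelled *Wtap*-BKO, in a T cell-like nucleus. No difference in either ligand was detectable at this depth.

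Of the 7 other EGF-family ligands, *Btc*, which encodes betacellulin, a ligand of EGFR and ErbB4, had the most UMIs in adipocyte-like nuclei. It stood at 57.8 CPM (437 UMIs) in flox/flox and at 37.9 CPM (312 UMIs) in the library labelled *Wtap*-BKO (log2 ratio -0.61, -0.82 to -0.40), and at 17.1 and 13.5 CPM in all other nuclei together. Unlike *Nrg4*, *Btc* was at its lowest in the white-like cluster, at 18.6 and 15.8 CPM on 5 and 18 UMIs, against 52.6 to 61.3 CPM in the other adipocyte-like clusters of flox/flox and 35.2 to 50.6 CPM in those of *Wtap*-BKO. *Nrg2*, a further neuregulin, stood at 91.5 CPM (29 UMIs) and 84.6 CPM (153 UMIs) in macrophage-like nuclei, against 5.56 and 3.16 CPM in adipocyte-like nuclei. *Egf* had 96 and 89 UMIs in adipocyte-like nuclei (12.7 and 10.8 CPM). *Nrg3* had 17 and 22 and *Tgfa* 16 and 24 UMIs there, *Ereg* had 1 and 0, and *Epgn* had 0 in both.

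*Egfr*, the EGF receptor, was a gene of the fibroblast-like nuclei in both libraries. It stood at 1035 CPM (923 to 1155, 315 UMIs) in flox/flox and at 1093 CPM (1029 to 1159, 1097 UMIs) in the library labelled *Wtap*-BKO. Fibroblast-like nuclei held 72.1% and 83.4% of all *Egfr* UMIs, although they held 2.83% and 7.20% of the UMIs of all genes. *Egfr* was among the 10 leading genes of this cluster, which was formed without it. Its level was 113-fold that of adipocyte-like nuclei in flox/flox (log2 6.82, 6.44 to 7.22) and 97.9-fold in the library labelled *Wtap*-BKO (log2 6.61, 6.30 to 6.94). Of all genes, 17.7% were at least 1.5-fold and 2.90% at least 10-fold higher in fibroblast-like than in adipocyte-like nuclei in both libraries.

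After thinning, 60.2% of flox/flox and 58.6% of *Wtap*-BKO fibroblast-like nuclei had an *Egfr* UMI, and without thinning 61.0% and 69.4% had one, at median depths of 921 and 1608.5 UMIs. In T cell-like nuclei, taken as the background, the thinned shares were 1.59% and 1.38%, at median depths of 1043 and 983.5 UMIs. Within the fibroblast-like class, *Egfr* was compared between nuclei with and without a UMI of *Dpp4* or *Pi16*, markers of a fibroblast progenitor state. Nuclei with such a UMI had 1206 CPM (30 nuclei) and 993 CPM (76 nuclei), and those without had 1012 and 1109 CPM, with overlapping intervals. Nuclei with a UMI of *Pdgfra*, a fibroblast receptor, had 1116 CPM (65 nuclei) in flox/flox and 1247 CPM (187 nuclei) in the library labelled *Wtap*-BKO, against 1004 and 964 CPM without. In *Wtap*-BKO the intervals of these 2 sets of nuclei did not overlap (1146 to 1353 and 884 to 1050 CPM), and the median depths were 2082 and 1396 UMIs. The part of depth in this difference was not tested.

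Over all nuclei, *Egfr* differed more between the libraries, with 40.6 CPM (437 UMIs) in flox/flox and 94.3 CPM (1315 UMIs) in *Wtap*-BKO (log2 ratio 1.22, 1.06 to 1.38). Within fibroblast-like nuclei the log2 ratio was 0.08 (-0.10 to 0.26). It was 0.26 (0.03 to 0.50) in nuclei with at least 1000 UMIs and 0.29 (0.09 to 0.50) without nuclei over 5% mitochondrial UMIs, with intervals that left out 0, and under 1.5-fold in each case. The share of all UMIs that came from fibroblast-like nuclei was 2.55-fold higher in the library labelled *Wtap*-BKO. Adipocyte-like nuclei had 9.13 and 11.2 CPM on 69 and 92 UMIs (log2 ratio 0.29, -0.18 to 0.76). This amounts to 0.88% and 1.02% of the fibroblast-like level, below the median of the 9 fibroblast markers in the same nuclei (1.89% and 2.23%), and was read as background. In the white-like cluster *Egfr* stood at 33.4 CPM on 9 UMIs and at 17.6 CPM on 20 UMIs, which is 3.23% and 1.61% of the fibroblast-like level, where the marker medians were 1.92% and 1.88%. Over the other adipocyte-like nuclei, the log2 ratio was 2.02 (0.82 to 3.04) in flox/flox and 0.79 (-0.00 to 1.52) in *Wtap*-BKO. Macrophage-like nuclei were at 5.19% (17 UMIs) and 3.59% (71 UMIs), above the marker medians of 2.26% and 3.19%. There, 8 of the 9 markers were under 15%, and *Dpp4* was at 128% and 88.8%.

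**Figure D3:**
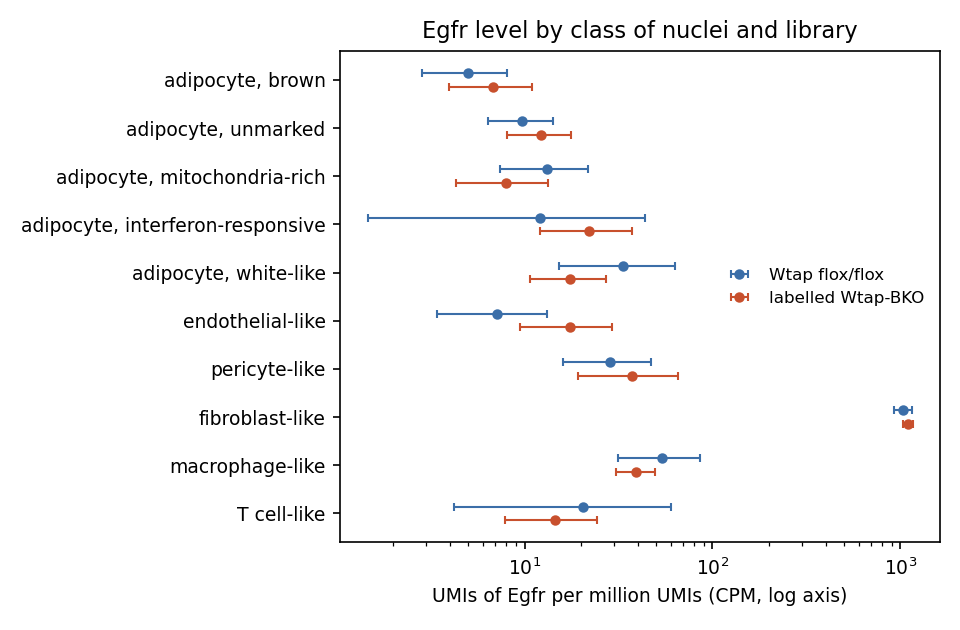
*Egfr* level in CPM, on a log axis, for each class of nuclei and library, with 95% Poisson intervals. The fibroblast-like points, at 1035 and 1093 CPM, overlap between libraries and lie far above those of every other class.

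*Erbb4*, the receptor for NRG4, had 6191 and 6034 UMIs, of which adipocyte-like nuclei held 88.2% and 85.8%. In these nuclei it stood at 723 CPM (704 to 742) in flox/flox and at 628 CPM (611 to 646) in the library labelled *Wtap*-BKO, and after thinning 46.5% and 40.5% of the nuclei had an *Erbb4* UMI, against 45.1% and 50.1% without thinning. In thinned macrophage-like nuclei the shares were 24.6% and 9.65%, and in T cell-like nuclei 49.2% (31 of 63, 36.4% to 62.1%) and 14.4% (52 of 362). The flox/flox T cell-like share was thus no lower than the adipocyte-like one, and an *Erbb4* UMI in a single nucleus of that library did not set the classes apart. *Erbb4* had its highest level in the brown cluster, at 886 and 814 CPM, and its lowest of the 5 adipocyte-like clusters in the white-like one, at 371 and 306 CPM. The other clusters lay between, at 681 and 696 CPM in the unmarked, 681 and 533 CPM in the interferon-responsive and 453 and 524 CPM in the mitochondria-rich cluster. The interferon-responsive and mitochondria-rich neighbours of *Wtap*-BKO did not differ beyond their counting intervals. The same was true in flox/flox of the unmarked and interferon-responsive clusters, and of the mitochondria-rich (415 to 494 CPM) and white-like clusters (302 to 452 CPM).

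The log2 ratio of *Erbb4* in adipocyte-like nuclei was -0.20 (-0.26 to -0.15) on all UMIs and -0.09 on non-mitochondrial UMIs. By cluster it was -0.12 (-0.20 to -0.04) in the brown, 0.03 (-0.07 to 0.13) in the unmarked, 0.21 (0.05 to 0.37) in the mitochondria-rich, -0.35 (-0.67 to -0.03) in the interferon-responsive and -0.28 (-0.60 to 0.06) in the white-like cluster. The brown value turned to 0.03 once nuclei with over 5% mitochondrial UMIs were removed, and the unmarked value to -0.04 under median-of-ratios scaling. The interferon-responsive interval held 0 on non-mitochondrial UMIs (-0.25, -0.56 to 0.07) and without nuclei over 5% mitochondrial UMIs (-0.30, -0.75 to 0.14). With every cluster given equal weight, the ratio for the class was -0.10. These values were under 1.5-fold. In nuclei with at most 5% mitochondrial UMIs, however, the white-like value was -0.64 (-1.05 to -0.23), which is past 1.5-fold lower, and the unmarked value was 0.31 (0.16 to 0.46).

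Across the mitochondrial bins of adipocyte-like nuclei, the direction for *Erbb4* turned. On non-mitochondrial UMIs it stood at 797 CPM in flox/flox and 722 CPM in *Wtap*-BKO in nuclei under 5%, and at 685 and 752 CPM between 5% and 10%. Between 10% and 20% it stood at 460 CPM (398 to 529) and 695 CPM (663 to 729), a 1.51-fold difference, and over 20% at 462 and 635 CPM. *Erbb4* was thus higher in the library labelled *Wtap*-BKO in 3 of the 4 bins and lower in the lowest one. The intervals of the libraries overlapped between 5% and 10% (633 to 741 and 716 to 789 CPM) and over 20% (354 to 592 and 583 to 690 CPM). In the other bins they were apart.

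Nuclei with and without a *Nrg4* UMI had *Erbb4* UMIs at similar rates. Among thinned adipocyte-like nuclei of flox/flox, 47.5% (45.5 to 49.6) of those with a *Nrg4* UMI and 44.0% (40.8 to 47.3) of those without had an *Erbb4* UMI. In the library labelled *Wtap*-BKO the shares were 40.7% (38.7 to 42.7) and 40.2% (37.7 to 42.8). The intervals overlapped in both libraries, and also within the white-like cluster, where *Erbb4* UMIs were found in 27 of 103 and 5 of 25 nuclei in flox/flox and in 81 of 350 and 25 of 100 nuclei in *Wtap*-BKO.

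*Erbb2*, the partner receptor without a ligand, had 35 and 62 UMIs in all. Endothelial-like nuclei held 15 and 20 of them, 42.9% and 32.3%, at 10.7 and 24.9 CPM. These levels were 10.1-fold and 9.31-fold those of adipocyte-like nuclei (1.06 and 2.67 CPM, on 8 and 22 UMIs), where 12.5% of all genes were at least 1.5-fold higher in endothelial-like nuclei in both libraries. Fibroblast-like nuclei had 23.0 and 8.97 CPM on 7 and 9 UMIs. Between the libraries, the log2 ratio was 1.22 (0.18 to 2.29) in endothelial-like nuclei, where the median over all genes was 0.36, and 1.34 (0.11 to 2.71) in adipocyte-like nuclei. The endothelial value was 1.15 (-0.36 to 2.66) in nuclei with at least 1000 UMIs and 0.86 (-0.18 to 1.93) under median-of-ratios scaling, both with intervals that held 0. It was 3.50 without nuclei over 5% mitochondrial UMIs and 2.03 at a clustering resolution of 1.0. In nuclei with at least 1000 UMIs the adipocyte value was 0.61 (-0.76 to 2.13), without nuclei over 5% mitochondrial UMIs it was 1.42 (-0.64 to 3.39) and on 8 principal components 1.21 (-0.03 to 2.60), so in these 3 settings its interval held 0 too. On 8 principal components the endothelial-like class split into a cluster of 957 flox/flox and 347 *Wtap*-BKO nuclei and one of 200 and 463, so its makeup differed between the libraries, and the part of this in the *Erbb2* ratio was not tested.

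*Erbb3*, the neuregulin receptor with little kinase activity, had 35 UMIs in flox/flox and 24 in the library labelled *Wtap*-BKO. Adipocyte-like nuclei held 27 and 12 of them, at 3.57 and 1.46 CPM (log2 ratio -1.29, -2.41 to -0.26). Without nuclei over 5% mitochondrial UMIs the ratio was -2.13 (-7.53 to 0.59), with an interval that held 0. The unnamed cluster led by *Cadm2* held 3 and 3 UMIs, at 25.8 and 8.96 CPM. In each library, 2 of these 3 UMIs were in nuclei with a UMI of a Schwann cell marker, which were 33 of 87 and 42 of 280 nuclei of that cluster. Those nuclei were deeper and held 63343 of the cluster's 116170 UMIs in flox/flox and 97968 of 334897 in *Wtap*-BKO. Schwann cell markers summed to 2040 and 415 CPM in the cluster, which was left unnamed. Of the 9 fibroblast markers, 5 passed the limit set for a name. Its leading genes held a skeletal muscle marker, *Ttn*, and a Schwann cell marker, *Cdh19*, but no fibroblast marker.

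Of the 8 genes, 6 reached a minimum of 20 UMIs over both libraries in adipocyte-like nuclei. Of these, 1 was at least 1.5-fold higher in the library labelled *Wtap*-BKO (*Erbb2*), 2 were at least 1.5-fold lower (*Nrg1* and *Erbb3*) and 3 lay within 1.5-fold (*Nrg4*, *Egfr* and *Erbb4*). All 3 past the fold had under 60 UMIs over both libraries. *Egfr* was past 1.5-fold higher in nuclei with at least 1000 UMIs (0.79, 0.20 to 1.42) and without nuclei over 5% mitochondrial UMIs (1.02, 0.32 to 1.70), and *Nrg1* was at 0.03 without the latter. Among all 14024 genes measured in these nuclei, 25.0% were higher and 12.5% lower by the same rule. In fibroblast-like nuclei 3 genes could be measured, and *Nrg4* and *Erbb4* were lower (all genes, 14.0%), none was higher (23.3%) and *Egfr* was within 1.5-fold. In macrophage-like nuclei *Nrg4* and *Erbb4* were lower (all genes, 17.0%) and *Nrg1* was higher (all genes, 25.3%), and in T cell-like nuclei *Nrg4* and *Erbb4* were lower (18.9%) and none was higher (31.3%). In pericyte-like nuclei *Erbb4* was lower (12.3%) and none was higher (21.3%). The values of *Nrg4* and *Erbb4* outside adipocyte-like nuclei concern levels read as background, and the adipocyte markers moved the same way in these classes. Their median part of the adipocyte-like level was 66.0% in flox/flox and 36.1% in *Wtap*-BKO T cell-like nuclei, 36.5% and 26.6% in fibroblast-like and 40.1% and 29.7% in pericyte-like nuclei. In endothelial-like nuclei *Egfr* and *Erbb2* were higher (33.9%) and none was lower on all UMIs (7.62%). *Egfr* stood there at 0.69% and 1.59% of the fibroblast-like level. This was below the medians of the fibroblast markers in the same nuclei (3.70% and 7.41%) and was read as background. The background-level *Erbb4* there, at -0.39, was past 1.5-fold lower under median-of-ratios scaling (-0.75), without nuclei over 5% mitochondrial UMIs (-1.18), at a resolution of 1.0 (-1.06) and without the nuclei of highest doublet score (-1.25). *Nrg4*, at -0.16, was so under the last 3 of these (-0.997, -0.67 and -0.63). The *Egfr* value in endothelial-like nuclei, 1.29 (0.01 to 2.62), rested on 10 and 14 UMIs. Its interval held 0 without mitochondrial UMIs (from -0.08), under median-of-ratios scaling (from -0.35), in nuclei with at least 1000 UMIs (from -0.97), without nuclei over 5% mitochondrial UMIs (from -0.73) and at a resolution of 1.0 (from -0.50).

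**Figure D4:**
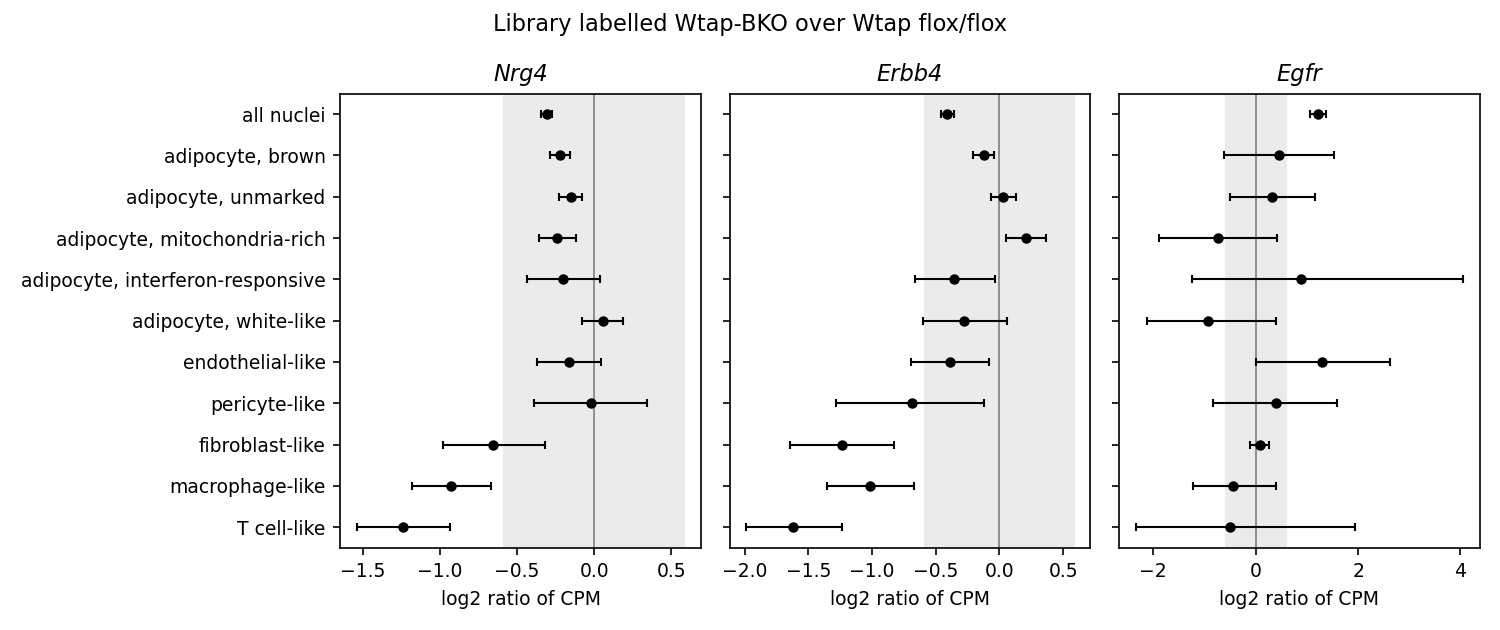
Log2 ratio of *Wtap*-BKO over flox/flox for *Nrg4*, *Erbb4* and *Egfr*, in all nuclei, each adipocyte-like cluster and the other classes. Bars are 95% intervals for counting error, and a grey band marks values within 1.5-fold. *Nrg4* and *Erbb4* lie inside the band in each adipocyte-like cluster, and below it in fibroblast-, macrophage- and T cell-like nuclei. *Egfr* lies near 0 in fibroblast-like nuclei.

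Of 44 other genes of the pathway, 42 could be measured in adipocyte-like nuclei, of which 7 were at least 1.5-fold higher, 5 at least 1.5-fold lower and 30 within 1.5-fold in the library labelled *Wtap*-BKO. These are 16.7% and 11.9% of the 42, beside 25.0% and 12.5% of all genes, and the median log2 ratio was -0.03, beside 0.07 over all genes. On non-mitochondrial UMIs 8 were higher (all genes, 29.1%), with *Stat5a* added, and 2 lower (all genes, 9.20%), since *Btc*, *Cblb* and *Lrig2* then came within 1.5-fold. Among the receptor adaptors and effectors, 2 of 17 were higher, 1 was lower and the median was -0.11. *Pik3r1*, a regulatory subunit of PI3-kinase, stood at 291 CPM (2203 UMIs) and 545 CPM (4493 UMIs), a log2 ratio of 0.90 (0.83 to 0.98). *Shc1*, an adaptor of tyrosine kinases, had 23.9 and 37.0 CPM (0.63), and *Plcg1*, a phospholipase bound by activated receptors, had 58.1 and 34.5 CPM (-0.75).

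Among the negative regulators of ErbB receptors, 4 of 14 were higher and 2 were lower (all genes, 25.0% and 12.5%), with a median of 0.14. *Dusp6*, a phosphatase of ERK kinases that is itself induced by ERK signalling, had 7.81 CPM (59 UMIs) and 33.7 CPM (278 UMIs), a log2 ratio of 2.11 (1.70 to 2.54). *Spry2* and *Spry4*, inhibitors of receptor tyrosine kinase signalling, had log2 ratios of 1.16 and 1.38, and *Lrig3*, a transmembrane protein of the LRIG family, had 19.1 and 32.7 CPM (0.78). *Cblb*, a ubiquitin ligase, had 361 and 230 CPM (-0.65), and *Lrig2*, of the same LRIG family, had 158 and 105 CPM (-0.60). Of the 6 genes of ligand shedding and trafficking, 1 was higher, *Rhbdf1* (1.11), and the median was 0.01. *Adam10* and *Adam17*, the main ErbB ligand sheddases, had log2 ratios of 0.07 and -0.04. Of the 5 other ligands that could be measured, *Btc* and *Nrg2* were lower and none was higher, with a median of -0.23.

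**Figure D5:**
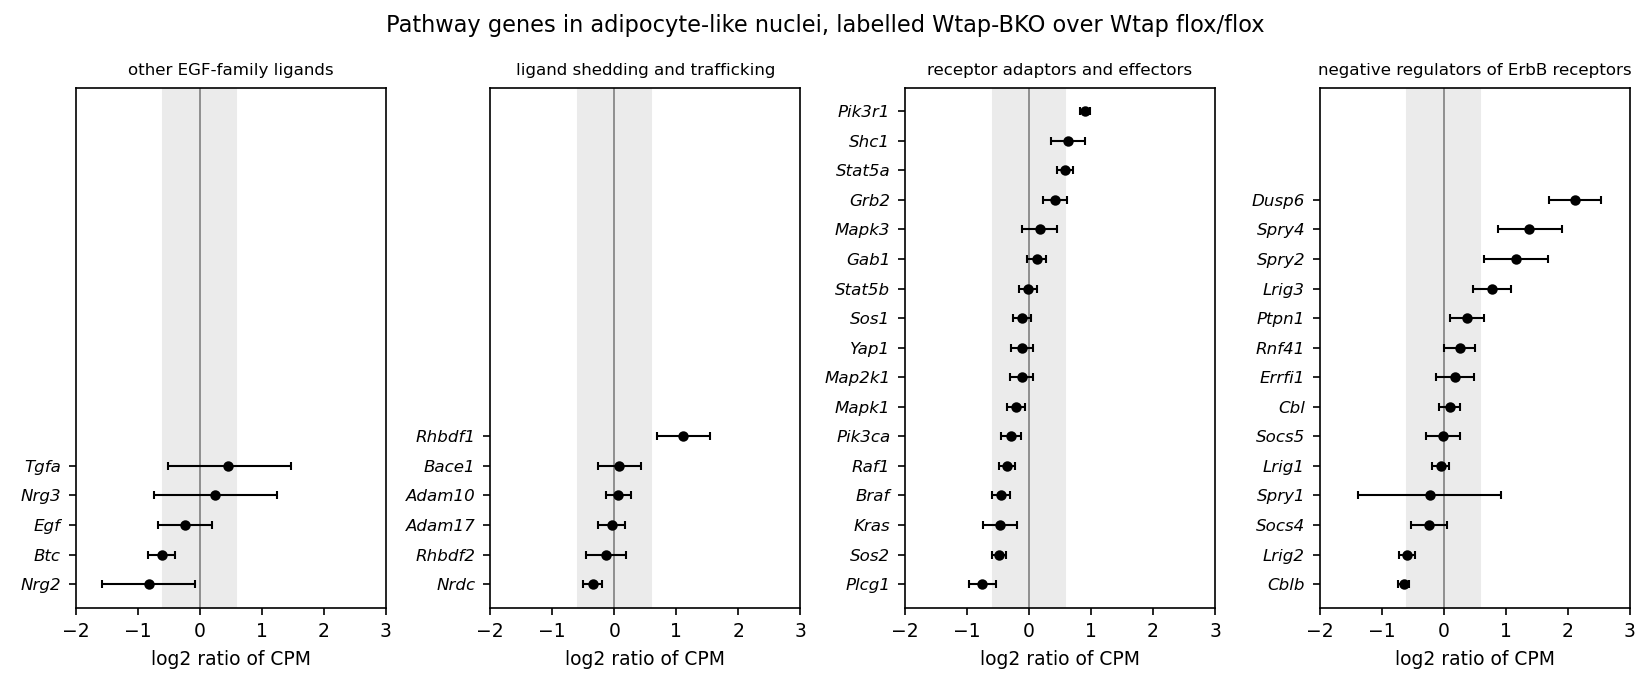
Log2 ratio of *Wtap*-BKO over flox/flox in adipocyte-like nuclei for the 42 measured genes of the pathway, grouped by list, with 95% intervals for counting error and a grey band for values within 1.5-fold. *Dusp6* lies highest at 2.11, and 30 of the 42 genes lie inside the band.

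The genes with levels most like those of *Nrg4*, *Egfr* and *Erbb4* were sought over 25 pairs of a class or cluster and a library, among 9073 genes with at least 300 UMIs, by Pearson's r of log2(CPM + 10). For *Nrg4* they were *Acvr1c* (r = 0.974), *Ankef1* (0.974) and *Hibch* (0.970). For *Erbb4* they were *Ntrk3* (0.973), *Ppargc1b* (0.961) and *Ppip5k1* (0.956), and for *Egfr* they were *Dnm1* (0.951), *Slc7a11* (0.933) and *Medag* (0.932), the last a leading gene of the fibroblast-like cluster. The 25 points come from 2 libraries and share their depth and background, so these values are a description.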

How the data were processed

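Nuclei of frozen iBAT were profiled with 10x Chromium 3′ v3.1 chemistry. The deposited values were raw UMI counts per gene and nucleus, which the authors made with Cell Ranger 5.0.0 (file header) on mm10, keeping nuclei with at least 500 UMIs. The treatment of intronic reads and the use of strand were not stated. Trimmomatic and FastQC are named in the submitters' processing notes.

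The 8 genes, the marker and pathway lists and the tests were chosen with earlier results of these data known. Nuclei were clustered after the study's methods with Seurat 5.3.0 in R 4.3.3 (log-normalization, 2000 variable features without the 8 genes, canonical correlation integration of the 2 libraries, 20 PCs, resolution 0.5), which gave 13 clusters. A cluster was named for a class if 3 or more of its markers reached 10 UMIs and 2-fold the CPM of other nuclei, unless its leading genes held more markers of another class. It was adipocyte-like where at least 50% of 12 adipocyte markers had 1.5-fold the CPM of the named clusters. 2 clusters stayed unnamed. The macrophage-like cluster also held markers of dendritic cells.

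UMIs were summed per class and library and given as CPM, with exact Poisson intervals, exact Clopper-Pearson intervals for shares and exact conditional intervals for log2 ratios, all at 95%, with numpy 2.4.6 and scipy 1.17.1. A gene with 0 UMIs was bounded at 3 UMIs. Genes with at least 20 UMIs over both libraries were measured, and a fold of 1.5 was the limit for higher or lower. For shares, nuclei were thinned to 1000 UMIs and shallower ones left out. The named genes were the 8 genes, the pathway genes past the fold, of which the 8 with the most UMIs are given with CPM, and for each of the 8 with at least 300 UMIs the 3 genes with the highest Pearson's r. *Adam10* and *Adam17*, the low ligands, and the values of *Btc* and *Nrg2* by class were added after their values were seen, as were the splits by *Dpp4*, *Pi16*, *Pdgfra*, dendritic and Schwann cell markers, the bins of white-like markers and of mitochondrial share, and the scalings by cluster. *Nrdc* is listed as *Nrd1* in the files. Positions are from the RefSeq table of GRCm38.p6, and no sequence is printed. Scrublet in scanpy 1.11.5 called 3 and 0 nuclei doublets and was taken not to have worked, so doublets were kept, and an alternative left out the 721 and 616 top-scored nuclei. The fold calculation was tested on simulated counts, and the alternatives are given at the end.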

Additional observations from a re-analysis of the deposited data

How the results depend on the processing

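No paired analysis was possible because each genotype had 1 library. In adipocyte-like nuclei, the log2 ratio of *Nrg4* moved from -0.11 to 0.0043 without mitochondrial UMIs in the denominator, -0.17 under median-of-ratios scaling, -0.19 in nuclei with at least 1000 UMIs and 0.26 without nuclei over 5% mitochondrial UMIs. That of *Erbb4* moved from -0.20 to -0.088, -0.27 and -0.28 under the first 3 of these, and to -0.10 with clusters weighted equally. That of *Egfr* moved from 0.29 to 0.79 at 1000 UMIs and 1.02 without mitochondria-rich nuclei. The adipocyte-like *Nrg4* level in flox/flox was 1378, 1427 and 1403 CPM without mitochondrial UMIs, at 1000 UMIs and without mitochondria-rich nuclei, and in *Wtap*-BKO 1382, 1250 and 1683 CPM. The *Erbb4* level was 756, 777 and 776 CPM in flox/flox, and in *Wtap*-BKO 711 CPM without mitochondrial UMIs and 697 CPM without mitochondria-rich nuclei. The *Wtap*-BKO fibroblast-like *Egfr* level was 1161 CPM without mitochondrial UMIs, 1377 CPM without mitochondria-rich nuclei, 1029 CPM on 8 PCs and 1215 CPM without the nuclei of highest doublet score. For the white-like cluster of flox/flox, 8 PCs gave log2 ratios over other adipocyte-like nuclei of 0.44 for *Nrg4* and -0.48 for *Erbb4*. In *Wtap*-BKO they were 0.94 for *Nrg4* without mitochondrial UMIs and -1.75 for *Erbb4* without mitochondria-rich nuclei. At 500 UMIs, 44.4% and 40.4% of adipocyte-like nuclei had a *Nrg4* UMI, 26.8% and 24.6% an *Erbb4* UMI, and 39.4% and 34.0% of fibroblast-like nuclei an *Egfr* UMI. Without thinning, the shares were 66.7% and 72.1% for *Nrg4*, 50.1% for *Erbb4* in *Wtap*-BKO and 69.4% for *Egfr* in *Wtap*-BKO. At a fold of 2, 4 pathway genes were higher and 0 lower, and without mitochondrial UMIs 2 were lower at 1.5-fold. A median-of-ratios level of a single library has no value and was not computed, and too few UMIs were left for the mitochondria-rich cluster without nuclei over 5% mitochondrial UMIs. The other 102 values stayed within the counting interval of the value reported or, for counts, within 1.5 times. These intervals are wide for low genes: in adipocyte-like nuclei *Nrg1* ran from -1.23 to 0.03, *Erbb2* from 0.61 to 2.04 and *Erbb3* from -2.13 to -1.08. For single genes in other classes and clusters, 111 values stayed and 35 moved, and among those that turned sign were *Nrg4* (0.08) and *Erbb4* (0.04) in endothelial-like nuclei with at least 1000 UMIs, which went the other way, down to -0.997 and -1.25, under other settings. In adipocyte-like nuclei *Nrg1* turned to 0.03 without mitochondria-rich nuclei and *Egfr* to -0.14 with clusters weighted equally. The scalings by cluster were chosen after seeing the data. The cause of the shifts was not tested. With 1 library of pooled mice per genotype, a difference between mice, tissue pieces or library preparations cannot be told apart from genotype, and *Nrg1*, *Hbegf*, *Areg*, *Erbb2* and *Erbb3* were limited by their few UMIs.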
